A study of Mus musculus with 17 samples.

Results

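Ribosomal protein pseudogenes named with the suffix -ps were followed in the RNA of mouse colon tumors. They were chosen by name: 299 gene symbols of the count tables had the form of a ribosomal protein gene followed by -ps, 293 of these had a pseudogene biotype in GENCODE, and 198 of the 293 had at least 1 count in 3 or more of the 17 libraries, out of 55421 genes in all. Of the other 95 pseudogenes, 58 had no count in any library. The 6 symbols annotated as protein coding (Rpl9-ps1, Rpl9-ps6, Rpl10-ps3, Rpl36-ps4, Rpl36a-ps1 and Rps12-ps3) were left out. The parent of each pseudogene was the protein-coding gene whose symbol stands before -ps, and all 56 parents were in the tables.

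Ribosomal protein genes encode the proteins of the large (Rpl) and small (Rps) subunit of the ribosome, and their mRNAs are among the most abundant of a growing cell. Processed pseudogenes arise when such an mRNA is copied back into DNA and inserted elsewhere in the genome, so that they carry the spliced sequence of the parent without its introns or, as a rule, its promoter. A short read from the parent mRNA can therefore be placed on the pseudogene, and the reverse, when their sequences differ by few bases. The count of such a pseudogene holds reads that were assigned to it and does not by itself show that it was transcribed.

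Tumors were induced in all 17 samples with azoxymethane, a carcinogen, and dextran sodium sulfate, which injures the colon epithelium. The groups were Tyk2+/+ (wild type, n = 3), Tyk2Δ/Δ (germline deletion of Tyk2, a Janus kinase of cytokine receptors, n = 3), Tyk2ΔIEC (Tyk2fl/fl with Villin-cre, which deletes Tyk2 in the intestinal epithelium, n = 4) and Tyk2fl/fl (both alleles floxed, no cre, n = 7). The mice were of the C57BL/6 background, and their age was not given in the sources used here. The tumors were dissected whole, so that other cells of the tumor contributed RNA, and fewer cells of a type cannot be told apart from less RNA per cell. Tumors were pooled within a sample, and the sources used here do not say whether each pool came from a separate animal, so that p-values measure the spread between these samples.

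Total counts, in units of 1e6, were between 19.1 and 21.7 in the 10 libraries of Tyk2+/+, Tyk2Δ/Δ and Tyk2ΔIEC tumors and between 29.8 and 35.4 in the 7 libraries of Tyk2fl/fl tumors, so the deeper libraries were all of 1 genotype. Counts of Tyk2 itself, summed over the whole gene, gave 42.5 to 59.1 CPM (counts per 1e6 counts, after TMM scaling) in all 17 libraries. These sums cannot show the deletion, which removes 1 exon, and so do not check the labels. Tyk2fl/fl replicates 1 to 3 carried 40656 to 45446 counts of Xist, which silences an X chromosome in female cells, and the other 14 libraries 2 to 106. The 9 markers of colon epithelium summed to 6065 to 9005 CPM over all libraries, with none at 0 in any group, and the summed markers of smooth muscle ranged from 180 to 769 CPM in Tyk2fl/fl and from 210 to 1466 CPM in Tyk2ΔIEC. The summed fibroblast markers ranged from 1281 to 2113 CPM in Tyk2fl/fl and from 1236 to 1554 CPM in Tyk2ΔIEC. The part of cell composition in the values that follow was not tested.

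Of the 198 pseudogenes, 192 were annotated as processed and 6 as transcribed processed pseudogenes, 122 were copies of large-subunit and 76 of small-subunit genes, and 14 lay on the X chromosome. Most overlapped no other gene (127), 20 lay in an intron of another gene on the same strand, and 7 overlapped an exon of another gene on the same strand. Aligned to the parent transcript, the pseudogenes had a median identity of 97.3% over a median of 463.5 aligned bases. To set this beside the sequenced reads, each pseudogene was divided into all windows of 75 bases, the read length. A median of 16.998% of the windows of a pseudogene occurred letter for letter in a transcript of the parent, and a median of 30.05% occurred in a transcript of some other gene, parent included.

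Of the pseudogenes shown next, Rps16-ps2, Rps6-ps4 and Rps15-ps2 had counts that differed between groups, whereas those of Rpsa-ps5 varied within groups. The windows run from no difference to 4 differences from the parent. They were read 5′ to 3′ on the strand of the pseudogene from the GENCODE M21 transcripts of build GRCm38, and capitals mark the bases that differ between pseudogene and parent. The first window of Rps16-ps2 (chr5:129128443-129128517, minus strand), which lies in an intron of Adgrd1 on the opposite strand, is the same in the parent Rps16:
Rps16-ps2 and Rps16: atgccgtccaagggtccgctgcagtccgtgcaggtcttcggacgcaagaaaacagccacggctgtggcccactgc
The first window of Rps6-ps4 (chr2:75191748-75191822, minus strand) is likewise the same in Rps6:
Rps6-ps4 and Rps6: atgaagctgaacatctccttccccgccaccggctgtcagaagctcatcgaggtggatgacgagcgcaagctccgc
The first window of Rps15-ps2 (chr6:58017506-58017580, plus strand) has 1 difference from Rps15:
Rps15-ps2: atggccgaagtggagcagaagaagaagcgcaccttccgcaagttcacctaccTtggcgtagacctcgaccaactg
Rps15: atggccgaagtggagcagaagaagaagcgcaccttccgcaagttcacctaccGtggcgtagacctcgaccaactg
The first window of Rpsa-ps5 (chr11:28956724-28956798, plus strand) has 4 differences from Rpsa:
Rpsa-ps5: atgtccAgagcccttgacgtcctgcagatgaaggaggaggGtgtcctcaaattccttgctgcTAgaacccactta
Rpsa: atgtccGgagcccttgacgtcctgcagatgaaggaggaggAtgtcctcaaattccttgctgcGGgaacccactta
All 367 windows of Rps16-ps2 and all 676 windows of Rps6-ps4 occurred in their parents, against 7.42% of the 364 windows of Rps15-ps2 and 10.7% of the 811 windows of Rpsa-ps5.

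The pseudogenes held few counts beside their parents. Summed over the 17 libraries they had 73308 counts, of which Rps16-ps2 had 29.3%, Rps16-ps2 and Rpl19-ps3 together 44.2%, and the 10 pseudogenes with the most counts 74.2%. The median library gave at least 10 counts for 33 pseudogenes, above 0 but under 10 for 112 and none for 53. The 198 pseudogenes together reached 0.469 to 0.504% of the summed counts of the 56 parents in Tyk2+/+, 0.546 to 0.565% in Tyk2Δ/Δ, 0.455 to 0.512% in Tyk2ΔIEC and 0.713 to 0.945% in Tyk2fl/fl. Every Tyk2fl/fl library thus lay above the other 10 libraries, and the means were 0.787 ± 0.0894% (SD, n = 7) in Tyk2fl/fl and 0.494 ± 0.0264% (SD, n = 4) in Tyk2ΔIEC. After all libraries were thinned at random to the same total, the shares ranged from 0.712 to 0.944% in Tyk2fl/fl and from 0.454 to 0.511% in Tyk2ΔIEC. As these sums are over pseudogenes chosen by name with earlier results known, they are given as a description with no test.

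**Figure D1:**
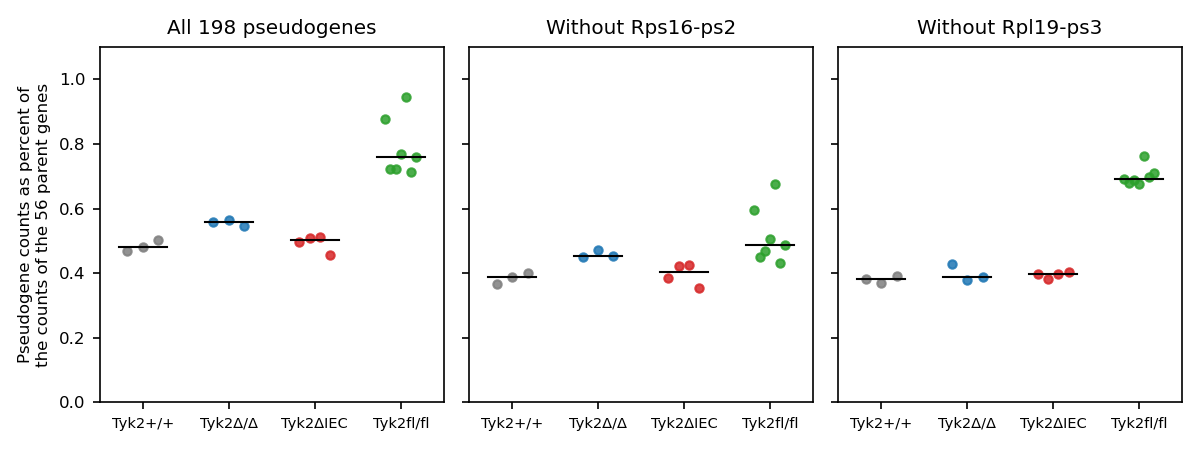
Counts of the pseudogenes as a percentage of the counts of their 56 parent genes, by genotype (points, libraries; lines, group medians), for all 198 pseudogenes and without Rps16-ps2 or Rpl19-ps3. With all 198, the 7 Tyk2fl/fl libraries lie between 0.713 and 0.945%, above all others; without Rps16-ps2 the Tyk2fl/fl and Tyk2Δ/Δ ranges overlap.

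A pair of pseudogenes set much of this sum. Without Rps16-ps2, the share was 0.433 to 0.676% in Tyk2fl/fl, 0.353 to 0.425% in Tyk2ΔIEC, 0.450 to 0.471% in Tyk2Δ/Δ and 0.368 to 0.402% in Tyk2+/+, so that Tyk2fl/fl still lay above Tyk2ΔIEC and Tyk2+/+ but overlapped Tyk2Δ/Δ. Without Rpl19-ps3, the Tyk2fl/fl libraries drew together to 0.676 to 0.763%, against 0.371 to 0.428% in the other 10 libraries. The separation of Tyk2Δ/Δ from Tyk2+/+ rested on Rpl19-ps3, since without it the shares were 0.380 to 0.428% and 0.371 to 0.392%. The number of pseudogenes with a count followed the depth in part. It was 155 to 171 in Tyk2fl/fl and 115 to 132 in the other libraries, and after thinning 132 to 149 and 114 to 129. Without both Rps16-ps2 and Rpl19-ps3, the share was 0.410 to 0.494% in Tyk2fl/fl, above all other libraries. It was 0.286 to 0.312% in Tyk2ΔIEC, 0.286 to 0.319% in Tyk2Δ/Δ and 0.279 to 0.290% in Tyk2+/+. Over the 127 pseudogenes that overlap no other gene, which leave out Rps16-ps2 but hold Rpl19-ps3, the separation was lost. Their share was 0.228 to 0.444% in Tyk2fl/fl, 0.201 to 0.293% in Tyk2ΔIEC, 0.299 to 0.342% in Tyk2Δ/Δ and 0.238 to 0.267% in Tyk2+/+, so that Tyk2fl/fl overlapped each of the others, and its mean of 0.315% lay below the 0.317% of Tyk2Δ/Δ.

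Relative to the parent, single pseudogenes spanned more than 8 on the log2 scale. Rps10-ps1 (chr3:95622278-95622772) and Rps10-ps2 (chr16:20822145-20822640) were highest by the median over 17 libraries, at 16.1% and 15.3% of the count of Rps10. Their parent had the lowest counts of the 56 parents, with a median of 188, whereas the other parents had medians of 1838 and more. Rps16-ps2 reached a median of 10.5% of Rps16, and Rpl19-ps3 9.08% of Rpl19. This order did not hold within Tyk2fl/fl, where Rps16-ps2 had a median of 27.8%, Rps10-ps1 of 16.7% and Rps10-ps2 of 10.4%. At the other end, among the 33 pseudogenes with a median of at least 10 counts, Rpsa-ps4 reached 0.0489% of Rpsa, Rps12-ps10 0.0651% of Rps12 and Rpl3-ps1 0.108% of Rpl3. The share of windows found in the parent was 88.3% for Rpl3-ps1, 100% for Rps16-ps2 and 0% for Rpl19-ps3.

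**Figure D2:**
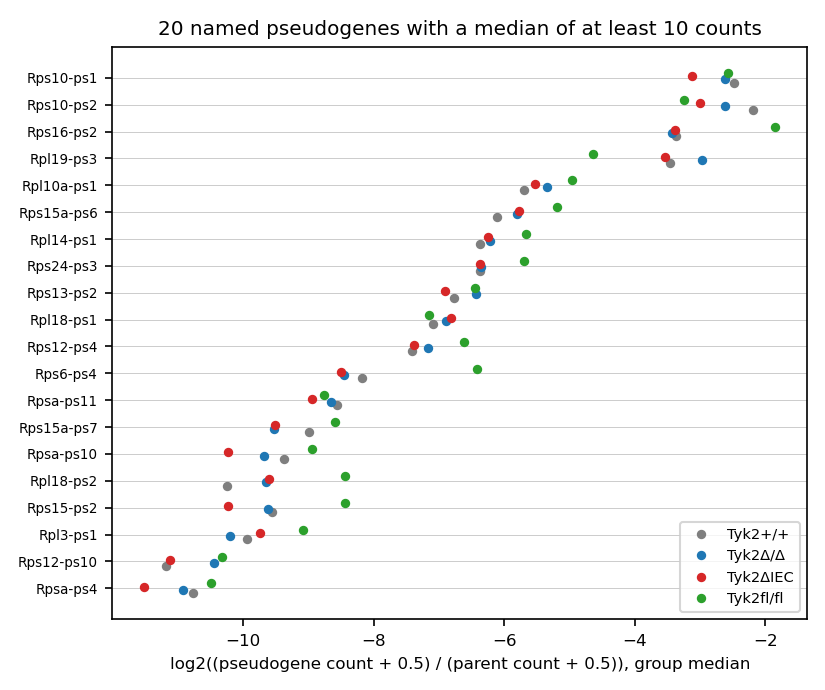
Log2 ratio of pseudogene to parent count (0.5 added to each) for 20 pseudogenes with a median of at least 10 counts, with 1 point per genotype at the group median. Rps16-ps2 and Rps6-ps4 stand to the right in Tyk2fl/fl, whereas Rpl18-ps1 and Rpsa-ps11 hold nearly the same place in all genotypes.

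Whether loss of Tyk2 in the epithelium went with a change of these pseudogenes was asked by comparing Tyk2ΔIEC with Tyk2fl/fl tumors. A gene was called when its adjusted p in edgeR's quasi-likelihood test over all genes was under 0.05 and it differed by more than 2-fold. Of the 198 pseudogenes 53 had enough counts to be tested, 21 were lower in Tyk2ΔIEC and none was higher, where 1.64% of all 17668 genes tested were called lower and 1.48% higher. The 21 were copies of 18 parents, 7 of the large and 14 of the small subunit. The count filter kept a pseudogene if it was present in either group, and 22 of the 53 had too few counts to be tested between Tyk2+/+ and Tyk2Δ/Δ, so the share of those tested is not a measure over all 198. With no filter, 25 of 197 pseudogenes with a count in these libraries were called lower and none higher (1.07% of 32955 genes were called lower). Among the 53 tested, every Tyk2ΔIEC library lay below every Tyk2fl/fl library for 24 (7.81% of all genes tested lay below in this way). Over all 198 this held for 29, and the reverse held for none. The share over all genes without the filter was not computed, so these 29 have no such reference. Entry into the 198 also needed counts in some libraries, which the deeper Tyk2fl/fl libraries could supply alone. A pseudogene admitted only through Tyk2fl/fl could lie below in Tyk2ΔIEC but could not show the reverse. The 29 against none, and the 25 against none with no filter, are therefore not read as a direction.

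Rps16 encodes a protein of the small subunit. Its copy Rps16-ps2 (chr5:129128077-129128517) stood at 23.5, 17.4, 17.05 and 22.4 CPM in the Tyk2ΔIEC tumors and at 58.5 to 88.8 CPM with a median of 72.4 in the Tyk2fl/fl tumors. In Tyk2+/+ tumors it stood at 31.8, 20.3 and 28.02 CPM and in Tyk2Δ/Δ tumors at 24.1, 21.9 and 21.3 CPM. The Tyk2fl/fl libraries were thus high and apart from the other 10, which overlapped one another. The difference between Tyk2ΔIEC and Tyk2fl/fl was -1.84 ± 0.13 (log2, SE; edgeR adjusted p = 2.49e-05). The parent Rps16 changed by -0.36 ± 0.10 (adjusted p = 0.0274), with 187 to 230 CPM in Tyk2ΔIEC and 221 to 319 CPM in Tyk2fl/fl. As a share of Rps16, its copy stood at 25.9 to 28.4% in Tyk2fl/fl and at 8.76 to 11.2% in all other libraries.

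Rps6, the protein phosphorylated by S6 kinase, has a full-length copy in Rps6-ps4 (chr2:75191073-75191822, in an intron of 2600014E21Rik on the opposite strand). Rps6-ps4 had 0.765, 0.664, 0.771 and 0.356 CPM in Tyk2ΔIEC and 2.72 to 4.45 CPM with a median of 3.43 in Tyk2fl/fl. The groups did not overlap, and the difference was -2.48 ± 0.24 (log2, SE; edgeR adjusted p = 0.000198). Rps6 itself differed by -0.14 ± 0.09 and was not called (adjusted p = 0.291). The second copy tested, Rps6-ps3, differed by -0.94 ± 0.25 with an adjusted p of 0.0211 in edgeR's test, under 2-fold.

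Rps15-ps2 (chr6:58017506-58017943), a copy of the small-subunit gene Rps15, had 0.191, 0.307, 0.530 and 0.457 CPM in Tyk2ΔIEC and 1.34 to 2.38 CPM with a median of 2.02 in Tyk2fl/fl. The Tyk2+/+ tumors had 0.719, 0.667 and 0.819 CPM and the Tyk2Δ/Δ tumors 0.740, 0.645 and 0.423 CPM, all below the Tyk2fl/fl tumors. The difference between Tyk2ΔIEC and Tyk2fl/fl was -2.33 ± 0.29 for Rps15-ps2 (edgeR adjusted p = 0.000799) and -0.56 ± 0.12 for Rps15 (adjusted p = 0.00716). This pseudogene differs from its parent in most windows.

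**Figure D3:**
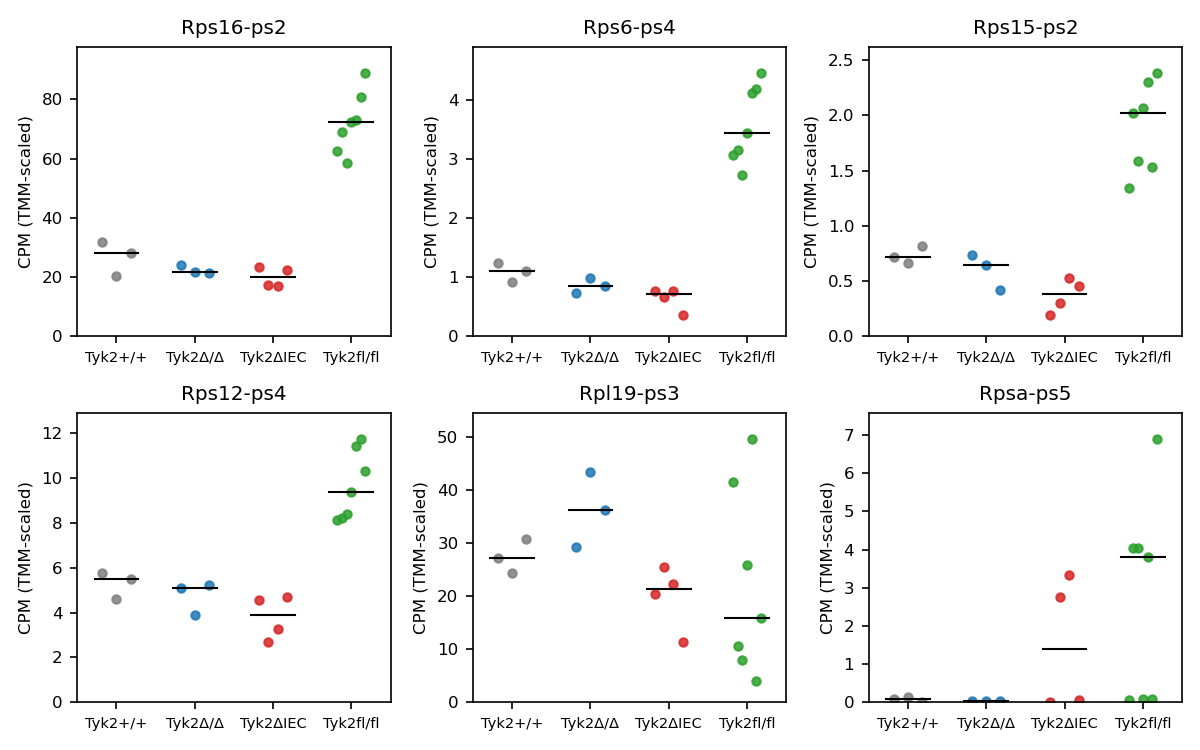
CPM by genotype for 6 pseudogenes (points, libraries; lines, group medians; each axis starts at 0). Rps16-ps2, Rps6-ps4, Rps15-ps2 and Rps12-ps4 are highest in all 7 Tyk2fl/fl libraries, whereas Rpl19-ps3 ranges from 4.04 to 49.5 CPM within Tyk2fl/fl and Rpsa-ps5 is near 0 in 11 of the 17 libraries.

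All 3 tested copies of Rps12 were called lower. Rps12-ps4 (chr7:30484701-30485097, over an exon of Nphs1 on the opposite strand) fell by 1.34 on the log2 scale, with 4.54, 2.71, 3.27 and 4.67 CPM in Tyk2ΔIEC and 8.14 to 11.7 CPM in Tyk2fl/fl (SE 0.18, edgeR adjusted p = 0.00107). Rps12-ps10 (chr2:122219993-122220391) fell by 1.47 (SE 0.26, adjusted p = 0.00324). Rps12-ps19 (chr11:75070814-75071213, in an intron of Smg6 on the opposite strand) had 2 counts over all 4 Tyk2ΔIEC libraries and 90 over the 7 Tyk2fl/fl libraries. The ratio per total count was 15.3 (95% exact counting interval 4.11 to 128). Rps12-ps19 was as rare in Tyk2+/+ (0, 0 and 3 counts) and Tyk2Δ/Δ (1, 0 and 0 counts). The whole Rps12 family of 10 pseudogenes summed to 3.37 to 5.23 CPM in Tyk2ΔIEC and 9.73 to 13.8 CPM in Tyk2fl/fl. Rps12 itself fell by 0.61 (SE 0.14, adjusted p = 0.0128), under 2-fold.

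Rpl7a-ps10 (chr9:97179179-97179976) had 1 count over the Tyk2ΔIEC libraries against 75 over the Tyk2fl/fl libraries. It was also nearly absent outside this pair of groups, with 3, 1 and 3 counts in Tyk2+/+ and 0, 1 and 2 in Tyk2Δ/Δ. The ratio per total count was 25.5 (95% exact counting interval 4.43 to 1019) for Tyk2fl/fl to Tyk2ΔIEC. Such intervals cover counting error only, and the fitted changes of such genes depend on the small constant added to the counts. Rpl10a-ps1 (chr1:64993951-64994604), identical to Rpl10a in all 580 windows, was well counted and fell by 1.045 (SE 0.14, edgeR adjusted p = 0.00108), from 7.19 to 10.9 CPM in Tyk2fl/fl to 4.11, 4.44, 4.24 and 5.03 CPM in Tyk2ΔIEC. Rpl18-ps2 (chr6:128313357-128313923), Rps15a-ps7 (chr2:152185291-152185682) and Rpsa-ps10 (chr3:150072658-150073542) fell by 1.53, 1.29 and 1.41 (SE 0.21, 0.21 and 0.23). Of the rest, Rpl19-ps11, Rpl21-ps10, Rpl38-ps2, Rpl39-ps, Rps10-ps1, Rps18-ps3, Rps23-ps1, Rps25-ps1 and Rpsa-ps4 fell by 1.03 to 2.62. Of all 21, only Rps23-ps1, Rpl38-ps2 and Rps18-ps3 had groups that overlapped. Of the 11 fits without 1 library, the call of Rps10-ps1 was lost in 2 (without Tyk2ΔIEC replicate 2 or Tyk2fl/fl replicate 7, at -0.98 and -0.93) and that of Rps23-ps1 in 1 (without Tyk2ΔIEC replicate 3, at -1.32). The call of Rpsa-ps4 was lost without any 1 Tyk2ΔIEC library (-1.47 to -1.21), that of Rpl19-ps11 without Tyk2ΔIEC replicate 1, 2 or 3 (-1.30 to -1.17), that of Rps18-ps3 without Tyk2ΔIEC replicate 1, 3 or 4 or Tyk2fl/fl replicate 2, 4 or 5 (-1.42 to -0.98) and that of Rpl38-ps2 without any 1 Tyk2ΔIEC library or Tyk2fl/fl replicate 1, 4 or 7 (-1.81 to -1.46). The other 15 kept their call in all 11.

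Copies of the same parent could differ. Rpl18-ps1, in an intron of Ctla4 on the same strand, had 2.89 to 3.96 CPM in Tyk2ΔIEC and 2.82 to 4.54 CPM in Tyk2fl/fl and differed by -0.07 ± 0.18 (edgeR adjusted p = 0.824), beside the fall of Rpl18-ps2. Only 11.4% of the length of Rpl18-ps1 aligned to Rpl18, at 62.7% identity, and none of its windows occurred in Rpl18. Rpl18-ps2 had 99.3% identity and 40.8% of its windows in Rpl18. This pair thus shares a parent by name more than by sequence. Rpl21-ps8 differed by 0.10 ± 0.28 while Rpl21-ps10 fell by 2.62, and 38.1% and 29.8% of their windows occurred in Rpl21. Rps10-ps2 differed by -0.32 ± 0.27 (adjusted p = 0.443) while Rps10-ps1 fell, with 75.4% and 33.5% of windows in Rps10. Rpsa-ps11 differed by -0.45 ± 0.18 (adjusted p = 0.0954) while Rpsa-ps10 and Rpsa-ps4 fell, with 4.79%, 64.6% and 6.39% of windows in Rpsa. The copy with the larger share was thus the one called in some pairs and not in others. The difference between copies of 1 parent was not tested.

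All 56 parent genes were tested and none was called, since none differed by 2-fold in either direction. Without the fold minimum, 43 of the 56 parents and 28 of the 53 pseudogenes were lower in Tyk2ΔIEC (adjusted p under 0.05 in edgeR's test), where 9.71% of all genes tested were lower by that rule. The changes of the parents ran from -0.71 to -0.13, with a median of -0.37, and for 32 parents every Tyk2ΔIEC library lay below every Tyk2fl/fl library. Over all genes tested the median was -0.0031. Among the protein-coding genes of the pathway, 35 of 46 large-subunit and 26 of 32 small-subunit genes were lower by the same rule without the fold minimum, and none of either was higher. The 8 close paralogs such as Rpl22l1 and Rps27l had 5 members tested, of which 2 were lower, and among 16 other mRNAs of the translation machinery and its kind that carry the same 5′ regulatory motif, such as Eef1a1 and Tpt1, 6 were lower.

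**Figure D4:**
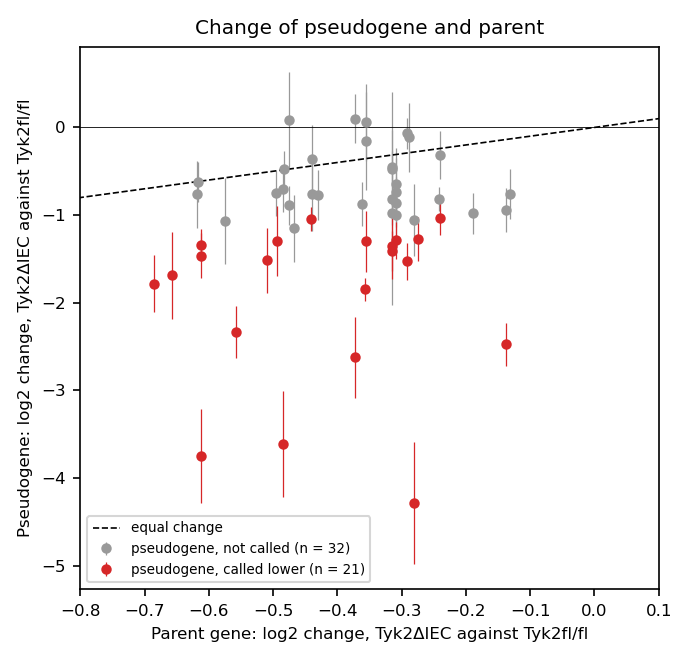
Log2 change in Tyk2ΔIEC against Tyk2fl/fl of each of the 53 tested pseudogenes (vertical axis, bars are SE) against that of its parent (horizontal axis). The parents of these 53 lie between -0.69 and -0.13, and the 21 called pseudogenes lie between -4.29 and -1.03, below the dashed line of equal change; copies of 1 parent share a horizontal position.

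Pseudogenes outside the family were also lower. Of the 8629 processed pseudogenes named Gm with a number, 472 were tested, of which 128 were called lower and 6 higher, and of 1186 -ps pseudogenes of other gene families 93 were tested, with 14 lower and 2 higher. Of 14697 protein-coding genes tested, 71 were lower and 150 higher. All of these carry the same limit as above, that the filter admits pseudogenes through the Tyk2fl/fl libraries. The median change was -0.98 over the 53 pseudogenes studied here, -0.66 over the Gm set, -0.25 over the other -ps set and 0.0047 over protein-coding genes.

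How the summed level moved with the share of the sequence held in common with the parent was described over all 198 pseudogenes, tested or not. The 198 were themselves admitted by a count in 3 or more of the 17 libraries. The deeper Tyk2fl/fl libraries could meet this alone, as for Rpl7a-ps13, so the sums are not free of selection by level. In the 18 with more than 80% of windows in the parent, the sum was 29.7 to 37.4 CPM in Tyk2ΔIEC and 82.3 to 123 CPM in Tyk2fl/fl, a ratio of medians of 3.02. Without Rps16-ps2 this ratio was 2.16. It was 1.95 in the 60 pseudogenes with 30 to 80% of windows in the parent and 1.75 in the 61 with 5 to 30%. In the 59 with 5% or less, the sum was 20.7 to 34.2 CPM in Tyk2ΔIEC and 17.2 to 62.0 CPM in Tyk2fl/fl, a ratio of 1.02, and without Rpl19-ps3 it was 7.90 to 9.30 and 8.81 to 14.0 CPM, a ratio of 1.23. The groups overlapped in this last class and not in the other 3. None of its 8 tested pseudogenes was called lower, against 6 of 11, 8 of 19 and 7 of 15 in the classes above it (1.64% of all genes tested). Only pseudogenes that passed the count filter are in these counts, and the filter admits them through the Tyk2fl/fl libraries. The counts are therefore not a measure over the classes. These are values over classes that share libraries, with no test of the order.

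**Figure D5:**
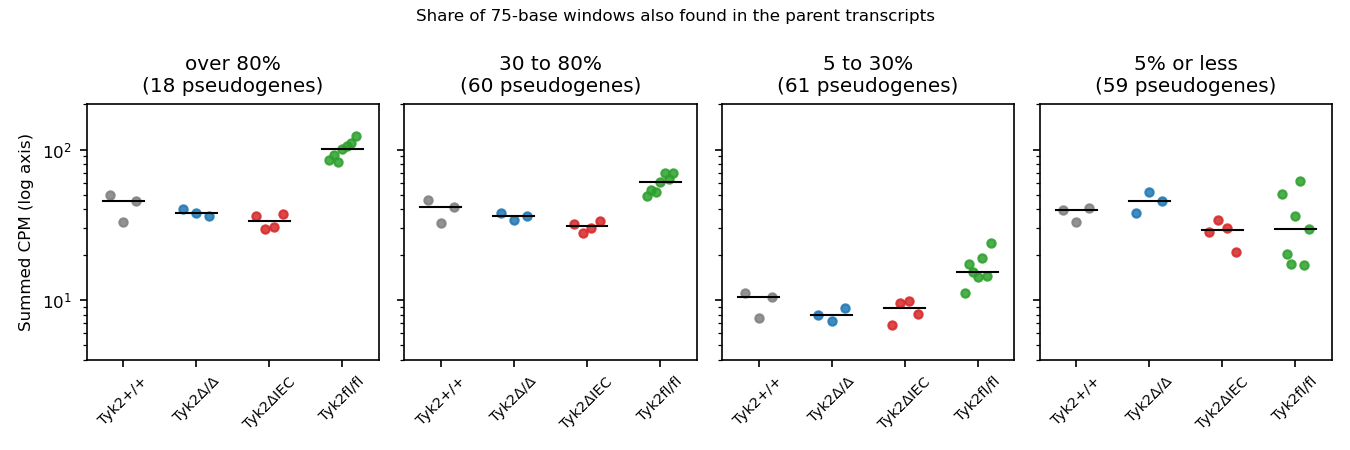
Summed CPM (log axis) of the pseudogenes in 4 classes of the share of their 75-base windows that also occur in transcripts of the parent, by genotype (points, libraries; lines, group medians). Tyk2fl/fl lies above Tyk2ΔIEC without overlap in the first 3 classes, with ratios of medians of 3.02, 1.95 and 1.75, and overlaps it in the last.

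The germline deletion was examined in the same way. Between Tyk2Δ/Δ and Tyk2+/+ tumors 31 pseudogenes were tested and none was called by edgeR, limma voom or DESeq2 (1.21% of 16179 genes were called lower and 0.0927% higher by edgeR). At an unadjusted p under 0.05 there were 2 pseudogenes, Rpl19-ps3 and Rpl13a-ps1, and 12 of the 56 parents, where 22.8% of all genes passed. For 3 of the 31 tested the libraries of the groups did not overlap (28.7% of all genes tested). Over all 198 they did not for 14 (12 lower and 2 higher in Tyk2Δ/Δ), but all except those 3 had too few counts to be tested. The share over all genes without the filter was not computed, so the 12 and 2 are not read as a direction. Rps16-ps2 differed by -0.26 ± 0.16 (edgeR adjusted p = 0.366) and Rps6-ps4 by -0.35 ± 0.26 (adjusted p = 0.451). No parent was called, and the median over the parents was -0.25. Depth was alike in these groups, but the summed markers of T and NK cells were 3.77 to 5.12 CPM in Tyk2Δ/Δ and 8.39 to 13.9 CPM in Tyk2+/+, and those of B and plasma cells 64.8 to 199 CPM and 230 to 268 CPM, without overlap. The summed markers of smooth muscle, at 169 to 239 CPM in Tyk2Δ/Δ and 318 to 504 CPM in Tyk2+/+, did not overlap either. The part of these cells in the values was not tested.

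The change in Tyk2ΔIEC against Tyk2fl/fl was then set against that in Tyk2Δ/Δ against Tyk2+/+ in 1 fit of all 17 libraries. Of 42 pseudogenes tested, 8 had a change that differed between the experiments at an adjusted p under 0.05, all with the more negative change in Tyk2ΔIEC (2.73% of 17252 genes differed in this direction). The differences were 1.59 ± 0.22 for Rps16-ps2 (log2, SE; edgeR adjusted p = 0.000326), 2.13 ± 0.36 for Rps6-ps4 (0.00175), 1.20 ± 0.24 for Rpl10a-ps1 (0.00614), 2.05 ± 0.44 for Rps15-ps2 (0.00967), 2.30 ± 0.52 for Rpl18-ps2 (0.0134) and 1.18 ± 0.27 for Rps12-ps4 (0.0137). Those of Rpl14-ps1 (0.79 ± 0.23, adjusted p = 0.0458) and Rps15a-ps6 (0.92 ± 0.27, adjusted p = 0.0478) lay near the threshold. Of the 17 fits without 1 library, the call was lost in 11 for Rpl14-ps1 (0.63 to 0.85) and in 13 for Rps15a-ps6 (0.71 to 1.07), among them those without Tyk2+/+ replicate 2 or 3 and without any 1 Tyk2Δ/Δ library, whereas the other 6 kept theirs in all 17. Both were also lost with limma voom. No parent differed in this fit.

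Both control groups carry a functional Tyk2, and their comparison was described from the same fit. In Tyk2fl/fl against Tyk2+/+ tumors 5 pseudogenes were called higher and none lower (0.933% of 17252 genes were higher and 1.41% lower), and without the fold minimum 11 were higher (5.49% of all genes). Rps16-ps2 was higher by 1.43 ± 0.15 (log2, SE; edgeR adjusted p = 6.89e-05), Rps6-ps4 by 1.71 ± 0.23 (adjusted p = 0.000667), Rpl18-ps2 by 2.06 ± 0.36 (adjusted p = 0.00286) and Rps15-ps2 by 1.35 ± 0.28 (adjusted p = 0.00648). These 4 kept their call in all 17 fits without 1 library. The median over the parents was -0.02 and none was called. The B and plasma cell markers were lower in Tyk2fl/fl, at 20.5 to 132 CPM, than in Tyk2+/+, without overlap. This comparison and the one with Tyk2ΔIEC share the Tyk2fl/fl libraries, which were also the deeper ones, so that genotype and whatever else set these libraries apart cannot be told apart. When the counts were thinned to equal depth, 18 pseudogenes were called lower in Tyk2ΔIEC against Tyk2fl/fl, 15 of them among the 21. The share over all genes after thinning is not given here, so these 18 have no such reference.

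Not every abundant pseudogene followed the genotypes. Rpl19-ps3 (chr14:49103507-49122712), a transcribed processed pseudogene with further exons, had no window in common with Rpl19. It had 27.2, 24.3 and 30.8 CPM in Tyk2+/+, 29.2, 43.2 and 36.2 CPM in Tyk2Δ/Δ, 20.5, 25.5, 22.2 and 11.4 CPM in Tyk2ΔIEC and 4.04 to 49.5 CPM with a median of 15.8 in Tyk2fl/fl. Tyk2fl/fl thus held both the lowest and the highest library. The differences were 0.39 ± 0.15 in Tyk2Δ/Δ against Tyk2+/+ (edgeR adjusted p = 0.166) and -0.16 ± 0.56 in Tyk2ΔIEC against Tyk2fl/fl (adjusted p = 0.873).

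Rpsa-ps5 (chr11:28956724-28957608), singled out after its values were seen, is a copy of Rpsa, the ribosomal protein also known as the laminin receptor. It had 0 to 3 counts in all 6 Tyk2+/+ and Tyk2Δ/Δ libraries. The Tyk2ΔIEC libraries had 0, 54, 69 and 1 counts, and the Tyk2fl/fl libraries had 2, 136, 135, 3, 134, 3 and 220 counts, so that both groups held libraries near 0 and libraries far above it. The difference between them was -0.81 ± 1.22 (edgeR adjusted p = 0.679). Among the Tyk2fl/fl libraries with high Xist, replicate 1 had 2 counts of Rpsa-ps5 and replicates 2 and 3 had 136 and 135. Among those with low Xist, replicates 4 and 6 had 3 counts each and replicates 5 and 7 had 134 and 220. A relation to Xist was not tested.

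Among the other abundant pseudogenes, Rps13-ps2 (chr7:88530446-88530898), Rpl14-ps1 (chr7:45324965-45325617), Rps15a-ps6 (chr11:6172644-6173036) and Rps24-ps3 (chrX:79195047-79195448) had adjusted p under 0.05 in Tyk2ΔIEC against Tyk2fl/fl but changes of -0.89, -0.82, -0.86 and -0.98, under 2-fold. Rps24-ps3 was past 2-fold when Tyk2ΔIEC replicate 1 or 4 or Tyk2fl/fl replicate 1 or 3 was left out (-1.06 to -1.01), and Rps13-ps2 without Tyk2ΔIEC replicate 4 (-1.08). With only Tyk2fl/fl replicates 4 to 7, which had 22 to 106 counts of Xist, as controls, 19 pseudogenes were called lower and none higher, 13 of them among the 21. The share over all genes with these controls is not given here, so these 19 have no such reference. Rpl3-ps1 differed by -0.76 ± 0.29 (edgeR adjusted p = 0.0809).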

How the data were processed

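RNA of 17 colon tumor samples was sequenced as poly(A) libraries with reads of 75 bases. The deposited values are raw counts per gene, made by the authors with STAR 2.6.1a against GRCm38 (mm10 in the submitters' notes) and a GENCODE annotation. The strand setting is not given in the sources used here, so that reads of a pseudogene and of a gene on the opposite strand may not be separated. STAR's gene counts hold uniquely placed reads, which limits what a pseudogene identical to its parent can receive. Rps16-ps2, Rps6-ps4 and Rpl10a-ps1, whose windows all occurred in their parents, are among those under this limit. Where their counted reads came from was not tested. Groups were taken from the sample titles.

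Gene IDs were matched to GENCODE M21 (55240 of 55421, versions ignored), which gave symbols, biotypes and sequences. Counts were tested with edgeR 4.0.16 (quasi-likelihood, TMM scaling, minimum count 10 and minimum total 15 in filterByExpr), with Benjamini-Hochberg adjustment over all genes tested. Tyk2Δ/Δ was compared with Tyk2+/+ and Tyk2ΔIEC with Tyk2fl/fl, each on its own libraries, and the remaining comparisons came from 1 fit of 17 libraries. CPM values use TMM factors of all 17. The test was run on simulated data. Alternatives were limma 3.58.1 voom, DESeq2 1.42.0, other scalings and filters, thinning to 19129696 counts and leaving out each library. A rank correlation of the summed level with depth was planned and left out, since the pseudogenes were not chosen blind to these data. Instead the values are given per group and after thinning.

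The pseudogenes, gene lists and sequence classes were chosen with earlier results of these data known. Named pseudogenes were up to 12 called per comparison and direction, the 10 with the highest median CPM, the 4 highest and 4 lowest by ratio to the parent, and up to 6 whose change differed between the experiments; others are named where they complete a count. Some that the rule named are not reported here, although they stay in the counts.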

Additional observations from a re-analysis of the deposited data

Results flagged for a closer look

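The change in Tyk2ΔIEC against Tyk2fl/fl differed from that in Tyk2Δ/Δ against Tyk2+/+ for 8 of 42 pseudogenes tested (edgeR interaction contrast, adjusted p under 0.05). All 8 had the more negative change in Tyk2ΔIEC, and 2.73% of the 17252 genes tested differed in this direction. The deeper Tyk2fl/fl libraries enter this contrast. The differences on the log2 scale were 1.20 for Rpl10a-ps1, 0.79 for Rpl14-ps1, 2.30 for Rpl18-ps2, 1.18 for Rps12-ps4, 2.05 for Rps15-ps2, 0.92 for Rps15a-ps6, 1.59 for Rps16-ps2 and 2.13 for Rps6-ps4. Without 1 library, the calls of Rpl14-ps1 and Rps15a-ps6 were lost in 11 and 13 of 17 fits, and both were lost with limma voom.

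Single libraries stood apart from the rest of their group in 3 of 50 sets of values examined, where chance gives about 1 in 20. In Tyk2ΔIEC these were replicate 3 for Rpl7a-ps10 (0.0482 CPM), resting on 1 count, and replicate 4 for Rps13-ps2 (3.61 CPM). In Tyk2fl/fl it was replicate 7 for Rps12-ps19 (0.564 CPM).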

How the results depend on the processing

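The count of 21 pseudogenes lower in Tyk2ΔIEC stayed within 1.5 times under the scalings, tools, thinning and control subsets tried, and was 17 to 24 when 1 library was left out. It was 7 with a minimum count of 50, which left 20 to test. With the replicate number as a block (replicate block) it was 11, and 0 in Tyk2Δ/Δ against Tyk2+/+ as without it. The labels give no meaning to the shared numbers, and same-numbered libraries did not deviate together (correlations of -0.38 to 0.10 and of -0.13 to -0.04). The count of 0 for Tyk2Δ/Δ was the same under all alternatives run. The 5 pseudogenes higher in Tyk2fl/fl against Tyk2+/+ were 10 with no filter, 2 with a minimum count of 50 and 8 after thinning, with or without the filter. Shares over all genes are not given beside these alternatives, so the counts show only how far each one moved. Of the parents, 43 were lower in Tyk2ΔIEC by adjusted p alone, and those whose change differed between experiments numbered 1 with DESeq2 and 0 to 4 without 1 library. Requiring counts in every library left 58 of 198 pseudogenes. The median log2 ratio to the parent moved to -7.90, -7.99 and -7.87 with a pseudocount of 5 in Tyk2+/+, Tyk2Δ/Δ and Tyk2ΔIEC, and to -7.11, -7.06, -6.98 and, in Tyk2fl/fl, -6.76 over the 20 pseudogenes with 10 counts in every library. In the same order of groups, the mean share of the parents' counts was 0.404, 0.476, 0.406 and 0.648% over those 20. Chosen after seeing the data, it was 0.386, 0.459, 0.396 and 0.517% without Rps16-ps2, 0.382, 0.399 and 0.396% in the first 3 groups without Rpl19-ps3, and 0.256, 0.317, 0.256 and 0.315% over pseudogenes that overlap no other gene. No log2 change of a named pseudogene reversed. Low counts limit the rest, since 53 pseudogenes had a median of 0.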

Other observations

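Among the 6 genes with -ps symbols annotated as protein coding, Rpl9-ps6 had 412 to 676 counts in Tyk2fl/fl and 100 to 221 counts in the other libraries, and Rpl10-ps3 had 45 to 77 and 12 to 38 counts. These are raw counts, not scaled to depth, and the Tyk2fl/fl libraries were the deeper ones. The ranges therefore do not show a difference between the groups. The other 4 had at most 13 counts in any library.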
